A study of Mus musculus with 12 samples.

Results

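The RNAs that the double-stranded RNA (dsRNA) antibody K1 pulled down from control intestinal epithelium were compared with the total RNA, called input, of the same animals. The comparison rests on 4 of the 12 libraries of the series, taken by their labels: genotype Control with either no antibody (2 input libraries) or the K1 antibody (2 pulldown libraries). All came from 2 female mice aged 3 months that had received vehicle injections for 4 days, and the animal numbers in the labels tie each pulldown to its input. Epithelial cells, titled as of whole intestine in the labels, were by the labels' protocol released with EDTA from the proximal part of the small intestine 2 days after the last injection, and the pulldown was made from the supernatant of a spun lysate with the antibody on protein G beads. Random-primed libraries were depleted of ribosomal RNA and carried molecular identifiers. KAT2A/KAT2B DKO mice (tamoxifen at 100 mg/kg, 2 animals) and J2 pulldowns (J2 is another dsRNA antibody) make up the other 8 libraries. The labels give no alleles or Cre driver for either group. No pulldown with a control antibody was used here, and whether the input went through the same spin is not stated in the sources used here.

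K1 and J2 are monoclonal antibodies that bind RNA helices through their shape and not through their base sequence. In a cell without virus, such helices form where both strands of a locus are transcribed, where a transcript carries inverted copies of a repeat that fold back on each other, and in mitochondria, whose circular DNA is transcribed in full from both strands. Self dsRNA matters because sensors such as MDA5 and PKR read long helices as signs of infection, while ADAR enzymes edit them and mitochondrial nucleases clear them.

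Among the genes with the largest rises that also carried a self-complementary stretch of at least 100 bases, the 5 leading ones held it in the 3' UTR. The best-paired 30 bases of each arm are shown because they are the parts of these messages that could form a helix. Each arm is written 5' to 3' from the GENCODE M21 transcript (GRCm38), with bases that pair with the other arm in capitals.
Rpa1 arm 1, chr11:75301011-75301040, minus strand: ATTtTGTTATCTTCAAACAGaaATTaTGTC
Rpa1 arm 2, chr11:75300554-75300583, minus strand: GACAcAATccCTGTTTGAAGATAACAgAAT
Deptor arm 1, chr15:55255331-55255360, plus strand: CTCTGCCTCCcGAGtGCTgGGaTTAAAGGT
Deptor arm 2, chr15:55255566-55255595, plus strand: ACCTTTAAcCCtAGCcCTCtGGAGGCAGAG
Rnf168 arm 1, chr16:32299835-32299864, plus strand: CTGAAGGTCgcAAGTTCAAATCCCAGCAAC
Rnf168 arm 2, chr16:32300313-32300342, plus strand: GTTGCTGGGATTTGAACTTagGACCTTCAG
Slc35e2 arm 1, chr4:155621115-155621144, plus strand: aAGTTCCAGGACAGCCAgGGCaACACAGAG
Slc35e2 arm 2, chr4:155622280-155622309, plus strand: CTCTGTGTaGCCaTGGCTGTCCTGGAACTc
Xpnpep3 arm 1, chr15:81453979-81454008, plus strand: GGTTTCTCTGTGTAGCtCTGaCTaTCCTGG
Xpnpep3 arm 2, chr15:81456968-81456997, plus strand: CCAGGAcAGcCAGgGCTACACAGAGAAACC

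Between 26 and 28 of the 30 bases of each window paired. The whole stretches were 125 bases at 79.2% identity in Rpa1, 157 at 77.1% in Deptor, 132 at 87.9% in Rnf168, 169 at 80.5% in Slc35e2 and 122 at 78.7% in Xpnpep3, separated by 193 bases in Deptor and up to 2777 bases in Xpnpep3. For contrast, the noncoding RNA Kcnq1ot1 carries a stretch of 144 bases at 81.9% identity and fell in the pulldown. Its arms lie further apart, separated by 9806 bases in a transcript of 93092.
Kcnq1ot1 arm 1, chr7:143227219-143227248, minus strand: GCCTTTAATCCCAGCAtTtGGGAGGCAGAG
Kcnq1ot1 arm 2, chr7:143217181-143217210, minus strand: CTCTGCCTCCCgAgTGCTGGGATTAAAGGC

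A different kind of pairing is annotated in mitochondrial DNA, where the coding ends of mt-Nd5 and mt-Nd6 overlap on opposite strands over 14 bases (capitals).
mt-Nd5, chrM:13552-13565, plus strand: ttatactcaaTTAATCTCGAGTAA
mt-Nd6, chrM:13552-13565, minus strand: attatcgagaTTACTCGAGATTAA

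The control libraries held 10307281 and 11474107 gene-assigned counts in input and 16139531 and 14035066 in K1. Reads counted on no annotated feature made up 26.4% ± 0.89 (SD, n = 2) of the listed reads in input and 8.0% ± 1.2 (SD, n = 2) in K1. Reads in introns and reads between genes were not told apart in this class. The groups did not overlap, and an exact two-sided permutation test gave p = 0.333, the smallest that 2 against 2 allows. Summed CPM (counts scaled to library size) of 15 enterocyte markers were 44461 and 46768 in the input libraries against 179 and 173 for 15 leukocyte markers. The input sums were larger than those of leukocytes for fibroblast markers (258 and 298) and smooth muscle markers (261 and 292). They were smaller for endothelial and erythrocyte markers. Counting ignored strand, by the labels, so reads of a gene and of an overlapping antisense gene cannot be told apart.

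Of 15908 genes tested with edgeR's quasi-likelihood test, 6324 (39.8%) passed an adjusted p of 0.05. K1 was higher for 3134 (19.7%) and lower for 3190 (20.1%), and at least 2-fold higher for 1960 (12.3%) and at least 2-fold lower for 2770 (17.4%). The shares of 19.7% and 20.1% are the background for each count of list or gene class members below. The fold changes ran from -3.34 at the 5th percentile to 1.56 at the 95th on the log2 scale, so the falls reached further than the rises. All values are relative to a median of 0.00 over the genes tested; with DESeq2 size factors that median lay at -0.12 and the higher genes made up 41.4% of calls, against 49.6% here, and without TMM scaling the figures were -0.23 and 36.0%. The number called fell to 3167 without the first control input, 3100 without the second, 3762 without the first control K1 library and 3563 without the second. Blocking each animal within the control libraries alone gave 10349.

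**Figure D1:**
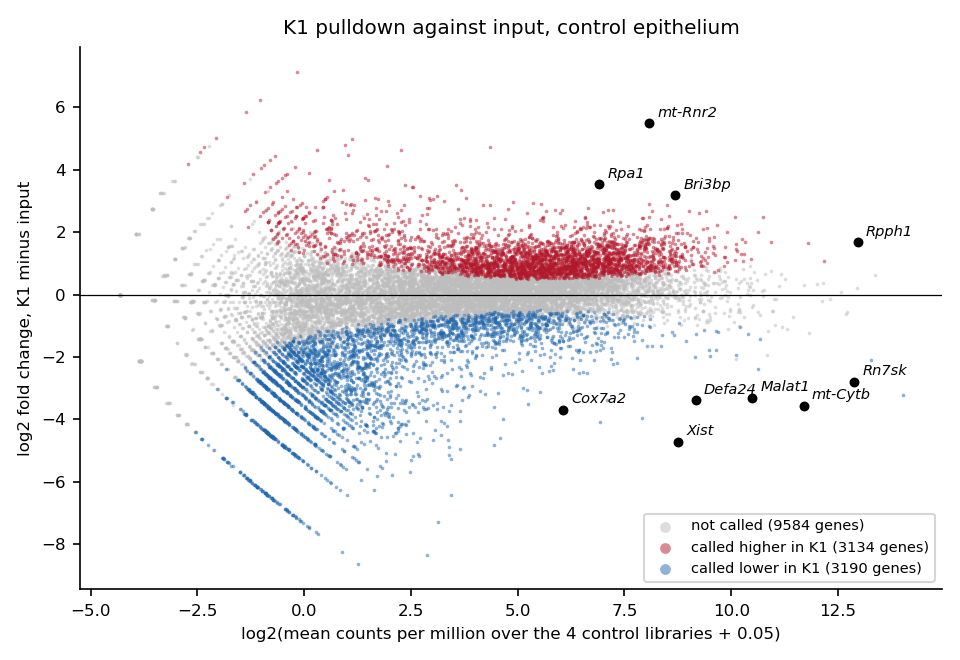
Log2 fold change of K1 against input in control epithelium (y axis) against the log2 of mean CPM over the 4 control libraries plus 0.05 (x axis), 1 point per gene tested. Red points (3134) were called higher and blue points (3190) lower; mt-Rnr2 stands at 5.51 and Xist at -4.71.

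Long mRNAs made up most of the largest gains in K1, and 3 of the 15 largest rises had self-complementary stretches of at least 100 bases, which 175 of 12854 protein-coding genes tested (1.36%) hold. Those 175 genes had a median transcript of 5328 bases, against 3376 for all protein-coding genes. Of them 33.1% were called higher, against 37.7% with stretches of 50 to 99 bases and 21.7% of all protein-coding genes. Genes of like length were not compared at the limit of 100 bases. Rpa1, a subunit of the single-stranded DNA binding complex RPA (chr11:75298166-75348324), had 219 and 260 counts in input and 3771 and 2824 in K1. That is 19.1 ± 0.91 against 221 ± 20 CPM (SD, n = 2), a log2 change of 3.54 ± 0.26 (SE, adjusted p = 8.13e-05), or 11.6-fold. Deptor, an inhibitor of mTOR (chr15:55112317-55259271), went from 708 and 886 counts to 8051 and 6092 (2.90 ± 0.28, adjusted p = 0.00015). Both were named on condition that their K1 and input libraries did not overlap, as in 39.4% of all genes tested with K1 higher.

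Rnf168, a ubiquitin ligase of the DNA damage response, had 189 and 201 counts in input and 1608 and 1424 in K1, a log2 change of 2.72 ± 0.22. Slc35e2, a member of a nucleotide-sugar transporter family, rose by 2.69 from 1695 and 1809 counts to 14986 and 11803. Xpnpep3, a mitochondrial aminopeptidase, rose by 2.42 from a low base of 50 and 67 counts to 462 and 286. All 3 passed at adjusted p values from 9.28e-05 to 0.000267, and lack of overlap between K1 and input libraries was a condition of naming them.

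Other leading rises had no stretch of 100 bases. Bri3bp, a membrane protein gene, had 916 and 1124 counts in input and 12247 and 9865 in K1 (3.20 ± 0.32, adjusted p = 0.000155), with a stretch of 83 bases. Wdr76 (2.94 ± 0.21), Tmem170b (2.77 ± 0.25), Zbtb39 (2.73 ± 0.31) and Mad2l1, a spindle checkpoint gene (2.69 ± 0.33), had none. Their 3' UTRs measured 2301 bases in Wdr76, 6772 in Tmem170b, 3655 in Zbtb39 and 6805 in Mad2l1, against a median of 1177 bases over all protein-coding genes tested. Zbtb18, a transcriptional repressor, rose by 2.71 ± 0.24.

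Overlap with a gene on the other strand was the second feature by which genes were named. Hopx, a homeodomain gene of quiescent intestinal stem cells, went from 116 and 160 counts to 1505 and 965 (2.91 ± 0.32, adjusted p = 0.000231); its exons overlap those of the antisense gene Hopxos over 412 bases. Zfp652, a zinc finger repressor overlapping Abi3 over 2974 bases, went from 1048 and 1098 counts to 10603 and 8232 (2.88 ± 0.25). Ovca2 (3.35 ± 0.33) and Zfp874b (3.09 ± 0.26) also belong here, but 60.4% and 38.6% of their transcripts match another gene at 97% identity or more, so their counts are uncertain. Deptor and Slc35e2, given above for their stretches, also overlap exons on the other strand, over 303 and 540 bases. Without strand, reads in these shared segments could come from either gene.

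**Figure D2:**
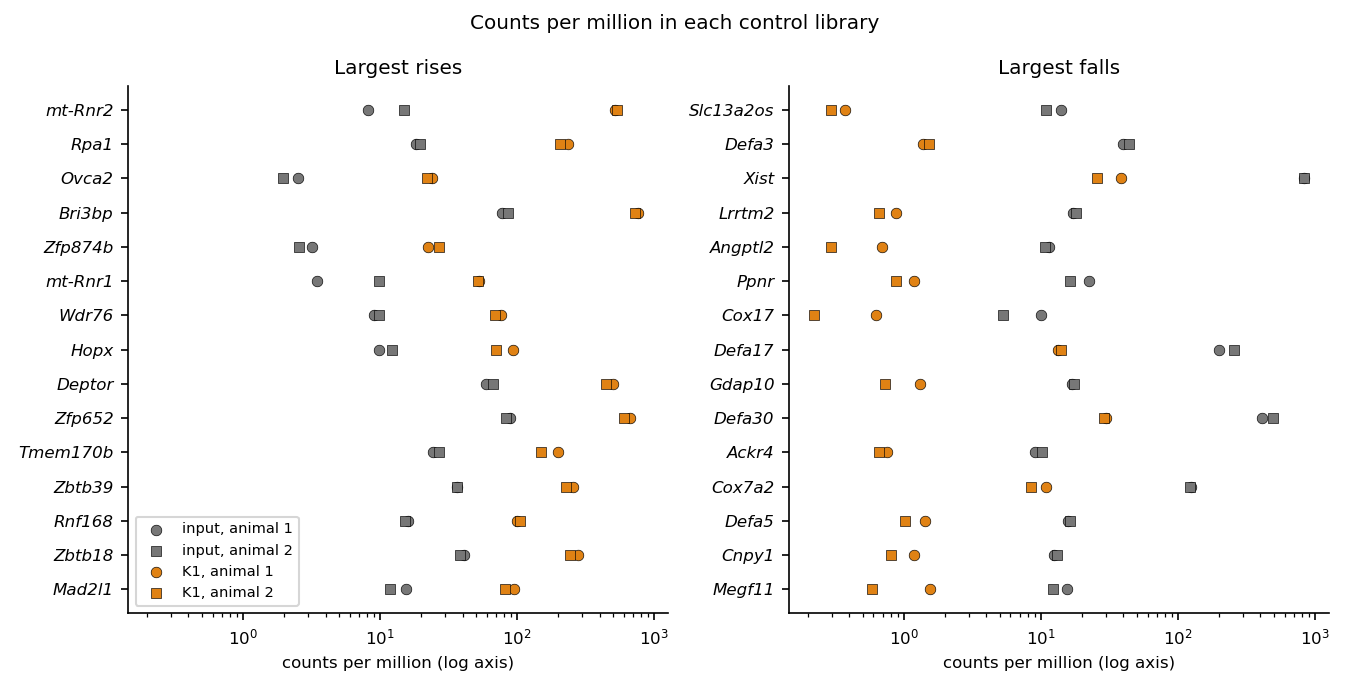
CPM on a log axis in each of the 4 control libraries for the 15 largest rises (left) and 15 largest falls (right) named by rule; grey is input, orange is K1, circles are animal 1 and squares animal 2. The genes were chosen for input and K1 points that do not overlap, as in 39.4% (K1 higher) and 39.5% (K1 lower) of all genes tested, and Rpa1 sits at 18.4 and 19.7 in input against 236 and 207 in K1.

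Transcript length separated the protein-coding genes that gained from those that lost. The 2790 called higher had a median longest transcript of 4521 bases and a median 3' UTR of 2025, and the 1632 called lower had 2381 and 648.5 bases. Among genes with transcripts over 6000 bases, 42.0% were higher and 4.46% lower, with a median log2 change of 0.58 (0.61 in animal 1 and 0.52 in animal 2). In the shortest class, up to 500 bases, 7.69% were higher and 61.5% lower, and the median was -1.53. Those with 3' UTRs over 4000 bases were higher in 46.6% and lower in 4.45% of cases. Length of the 3' UTR still went with the calls among transcripts over 6000 bases: 46.2% were higher where the UTR exceeded 2000 bases and 23.5% where it was 1000 or less.

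The median GC content was 51.5% in genes called higher, 48.0% in those called lower and 50.0% in all. At a GC content of 40% or less, 9.85% of genes were higher and 23.7% lower. Above 60% the shares were 35.2% and 6.93%, although the median transcript there was shorter, at 2346 against 4126 bases. Across 12854 protein-coding genes, which are not independent replicates, Spearman's rho with the log2 change was 0.35 for length, 0.30 for the 3' UTR and 0.18 for GC. With an offset for GC content and length in the fit, 5235 genes were still called, and the median over 3' UTRs above 4000 bases was 0.28 in place of 0.70.

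**Figure D3:**
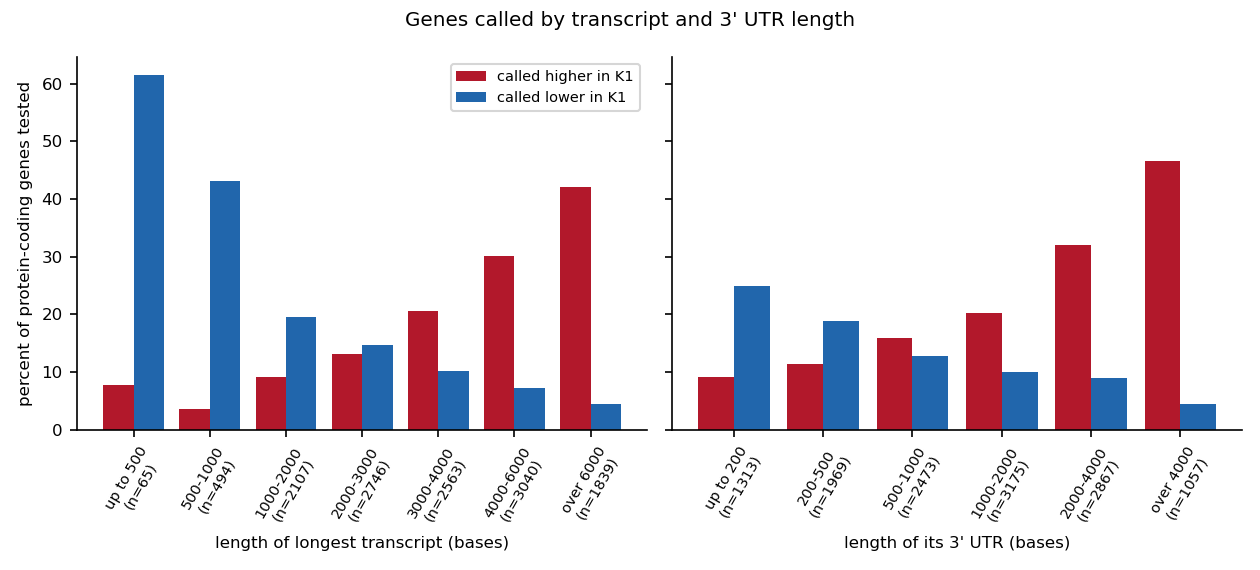
Percent of protein-coding genes called higher (red) or lower (blue) in K1 (y axis) by length in bases of the longest transcript (left) and of its 3' UTR (right), with the number of genes tested under each class. The red bars reach 42.0% and 46.6% in the longest classes, and the blue bars 61.5% and 24.9% in the shortest.

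A self-complementary stretch of at least 50 bases was found in 379 protein-coding genes tested. It was present in 4.84% of genes called higher, 2.14% of those called lower and 2.95% of all. Transcripts with such a stretch were longer, so classes of like length were compared. From 2000 to 4000 bases, 25% of genes with a stretch were higher against 16.6% without any; from 4000 to 6000 the shares were 32.6% and 30.1%, and above 6000 they were 47.4% and 41.1%. Up to 2000 bases, 0 of 4 genes with a stretch were higher, against 8.12% without. Genes with a stretch were also lower more often in the longer classes, 10.1% against 7.13% from 4000 to 6000 bases and 5.84% against 4.51% above, and about as often from 2000 to 4000 (12% against 12.5%). Exonic overlap of at least 200 bases with a gene on the other strand showed no such gradient: 19.7% of genes called higher, 18.1% of those called lower and 19.1% of all had one. None of these shares was tested.

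Noncoding gene classes held the highest shares of falls, although 1632 of the 3190 genes called lower were protein-coding (12.7% of that class). Xist, the RNA that coats the inactive X chromosome, had 9892 and 11046 counts in input and 613 and 350 in K1, 834 ± 3.8 against 32.0 ± 9.0 CPM (SD, n = 2), or 26.1-fold lower (adjusted p = 8.48e-05). Malat1, a nuclear speckle RNA, went from 30692 and 34629 counts to 4788 and 3133 (-3.30 ± 0.50), and Neat1, the scaffold of paraspeckles, from 3180 and 3075 to 409 and 309 (-3.38 ± 0.32). Kcnq1ot1, an imprinted antisense RNA that carries the stretch printed above, had 1098 and 1192 counts in input and 344 and 215 in K1 (-2.29 ± 0.39, adjusted p = 0.00156). Of 5 nuclear long noncoding RNAs tested as a list, which did not hold Xist, 4 fell and none rose.

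The antisense and intronic gene classes followed. Of 532 genes typed antisense, 366 fell and 16 rose; the median was -2.51 (-2.45 with genes at 0 counts in K1 set at a floor of 3 counts per library), and -1.93 with the GC and length offset. Of 643 genes typed TEC (transcripts still to be experimentally checked) 486 fell and 10 rose, of 106 sense-intronic genes 74 fell and 2 rose, and of 326 lincRNAs 132 fell and 20 rose. Slc13a2os, which lies opposite the citrate transporter gene Slc13a2, went from 167 and 145 counts to 6 and 4 (-5.17 ± 0.41, adjusted p = 9.28e-05). Ppnr, another noncoding RNA, fell by 4.20. Together with the smaller share of reads on no annotated feature, these classes all lie on the input side, and the part of nuclear RNA in this was not tested.

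Splicing-related messages went the same way. Of 20 nuclear splicing and speckle factors, 7 fell and 1 rose, beside 20.1% lower and 19.7% higher among all genes. Clk1 and Clk4, kinases of SR splicing proteins whose messages are known to keep introns in the nucleus, fell by 2.51 (918 and 1109 counts in input, 229 and 190 in K1) and fell by 2.57 (298 and 340, then 75 and 52). Srsf5 fell by 1.78, a call lost without the second control K1 library (adjusted p = 0.0729). Of 13 snoRNA host genes, 8 fell and none rose, with a median of -1.24.

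Mitochondrial RNAs split between ribosomal and messenger RNA. The large ribosomal RNA mt-Rnr2 had 97 and 197 counts in input and 8252 and 7365 in K1, 11.5 ± 4.8 against 527 ± 16 CPM (SD, n = 2), a log2 change of 5.51 ± 0.50 (adjusted p = 0.000133). The small one, mt-Rnr1, had 41 and 129 counts in input and 841 and 711 in K1 (2.97 ± 0.46, adjusted p = 0.00102). Lack of overlap between K1 and input libraries was a condition of naming both genes. The library kit depletes ribosomal RNA, and whether it did so alike in input and pulldown was not tested.

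Of 13 mitochondrial messages, 10 fell and 1 rose. mt-Cytb, the cytochrome b subunit of complex III, fell most, from 72382 and 81013 counts to 9237 and 6336 (-3.55 ± 0.40, adjusted p = 0.000259). mt-Co1, a cytochrome oxidase subunit, fell by 2.08, a call lost without the first or the second control K1 library (adjusted p = 0.0563 and 0.0831), and mt-Nd4l, a complex I subunit, by 2.52. mt-Nd6, the complex I gene encoded on the other strand, was the one that rose, from 6863 and 6846 counts to 18907 and 18422 (1.21 ± 0.39, adjusted p = 0.0321). Its call was lost when any 1 of the 4 control libraries was left out, with adjusted p from 0.126 to 0.241, or either DKO input library (adjusted p = 0.101 and 0.0788).

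mt-Nd5, whose coding end overlaps that of mt-Nd6, had 49293 and 49814 counts in input and 82064 and 71114 in K1, a log2 change of 0.38 ± 0.50 that did not pass (adjusted p = 0.573). It passed without the second DKO K1 library (adjusted p = 0.0445), with each animal as block in the control libraries alone (adjusted p = 0.0402), and at 1.67 with an offset for GC content and length (adjusted p = 0.0116). mt-Nd1, at -1.22 ± 0.45, did not pass either (adjusted p = 0.0541), but did with each animal as block (adjusted p = 0.0425) and without the first or the second DKO K1 library (adjusted p = 0.00021 and 0.000174). mt-Cytb, mt-Nd6 and mt-Nd5 are neighbours on the map, yet their values ran from -3.55 to 1.21. With the GC and length offset the median of the 13 messages went from -1.53 to 0.33. mt-Nd1 then went from -1.22 to 0.33 (adjusted p = 0.471) and mt-Atp8 from -2.60 to 0.40, while mt-Cytb stayed lower at -2.32.

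**Figure D4:**
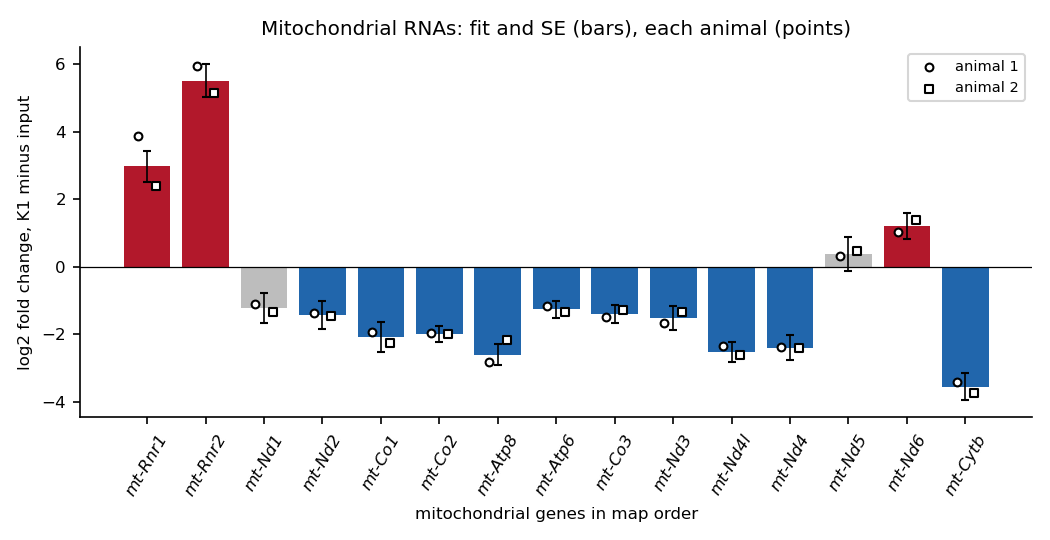
Log2 fold change of K1 against input (y axis) for the mitochondrial ribosomal RNAs and messages in map order (x axis); bars are the fit with its SE, open points each animal's own difference, red called higher, blue lower, grey not called. mt-Rnr2 (5.51), mt-Rnr1 (2.97) and mt-Nd6 (1.21) stand above zero as called genes, and mt-Cytb (-3.55) is the lowest.

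Small structured RNAs did not move together. Rn7sk, the RNA that holds the elongation factor P-TEFb inactive, fell from 150263 and 180829 counts to 28845 and 27474 (-2.79 ± 0.66, adjusted p = 0.00776), and Rpph1, the RNA of RNase P, rose from 43767 and 50687 to 150930 and 203358 (1.69 ± 0.54, adjusted p = 0.0297). The Rn7sk call was lost without the first or the second control K1 library (adjusted p = 0.0828 and 0.0735), and the Rpph1 call without any 1 of the 4 control libraries (adjusted p from 0.0869 to 0.228) or either DKO input library (adjusted p = 0.105 and 0.0790). Both sequences have near-identical copies over 72.8% and 73.0% of their length. Of 33 small nuclear RNAs, 29 fell and none rose, and of 53 small nucleolar and Cajal body RNAs 25 fell and 3 rose. The small nuclear RNA gene Gm25939 had 216 and 220 counts in input and 2 and 1 in K1.

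Paneth and enteroendocrine cell messages were under-represented in K1. Of 8 Paneth cell markers, 7 fell and none rose, beside 20.1% lower among all genes. Defa24, an antimicrobial defensin, went from 10605 and 15905 counts to 1434 and 1519 (-3.38 ± 0.45), and Defa17 from 2379 and 3406 to 214 and 191 (-4.07 ± 0.48). Defa3 went from 471 and 577 to 22 and 21. These defensin transcripts are near-identical to one another over 94.7% to 100% of their length, so the split of reads between them is uncertain. Pla2g2a, a secreted phospholipase of Paneth cells with no such copy, fell by 2.51 from 225 and 207 counts to 61 and 30, a call lost without the second control K1 library (adjusted p = 0.050).

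Of 13 enteroendocrine markers, 8 fell and none rose. Nts, the neurotensin gene, fell by 2.64 (113 and 93 counts in input, 21 and 18 in K1), Cck, the cholecystokinin gene, by 1.50 (400 and 410, then 177 and 162) and Gip by 1.35. Among 10 goblet cell markers Spink4 fell by 2.19 and Agr2 by 1.52, and the other 8 did not pass, so the share that fell was that of all genes. The Gip and Agr2 calls were lost with the GC and length offset (adjusted p = 0.104 and 0.149). The medians were -2.13 for Paneth, -1.05 for enteroendocrine and -0.52 for goblet markers, and -1.10, -0.65 and -0.35 with the offset, beside 0.00 for all genes. The median transcript of these lists was 564, 1208 and 1414 bases long, against 3002 for all genes.

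Of 15 enterocyte markers 3 fell and none rose, about the share of all genes (20.1% lower), but 14 of the 15 values were negative. The median was -0.65, and -0.78 with the GC and length offset. Those that fell included Fabp2 (12133 and 18943 counts in input, 5489 and 5164 in K1; -1.77 ± 0.30) and Fabp1 (-1.50 ± 0.30), which carry fatty acids in the cytosol. Of 21 lipid absorption genes, which include both, 4 fell, about the share of all genes, and none rose. Apoc3, an apolipoprotein of chylomicrons, fell by 1.66 from 4704 and 6095 counts to 1795 and 2178, a call lost without the first control K1 library (adjusted p = 0.0567). The Fabp1 and Fabp2 calls were lost with the offset (adjusted p = 0.388 and 0.115); that of Fabp1 was also lost without the second control input (adjusted p = 0.0510) or the first control K1 library (adjusted p = 0.0584). Of 18 brush border enzymes 3 fell, again near the share of all genes, but all 18 had negative values, with a median of -0.82. Cubn, the receptor for intrinsic factor, had 2502 and 6633 counts in input and 812 and 1720 in K1 (-2.01 ± 0.48); the inputs of the 2 animals differed more than 2-fold, and the call was lost without the second control input or the first control K1 library (adjusted p = 0.0781 and 0.0777).

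Of 15 stem cell markers, 3 rose, a share near that of all genes (19.7% higher), and none fell. The risers were Cdk6, a cell cycle kinase, from 439 and 558 counts to 2471 and 1963 (1.91 ± 0.20), Axin2, a feedback inhibitor of Wnt signalling, by 1.15 and Ephb2, a receptor that positions cells in the crypt, by 1.01. Lgr5, the defining marker, had 150 and 182 counts in input and 173 and 164 in K1 and was not called (-0.21 ± 0.35, adjusted p = 0.664), although its transcript holds a self-complementary stretch of 258 bases. Ephb2 lost its call without the first or the second control input (adjusted p = 0.0574 and 0.0523) and with the GC and length offset, at 0.08 (adjusted p = 0.733), and with that offset the median of the list went from 0.37 to -0.01. Dclk1, a tuft cell kinase, rose by 1.44 ± 0.22 (186 and 248 counts in input, 811 and 582 in K1). Of 16 proliferation markers, none rose and 1 fell.

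Leukocyte messages fell in 8 of 15 cases and rose in 1. Gzma, a granzyme of intraepithelial lymphocytes, went from 444 and 403 counts to 66 and 46 (-3.17 ± 0.25), Ccl5 from 317 and 362 to 55 and 49 (-2.94 ± 0.38) and Gzmb from 334 and 234 to 124 and 39 (-2.09 ± 0.42). Summed over the list, CPM were 179 and 173 in input and 73.6 and 60.8 in K1. Of the tissue markers outside the epithelium, 2 of 5 fibroblast genes rose, 1 of 5 endothelial genes fell, and no smooth muscle (2 tested) or erythrocyte gene (1 tested) was called.

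**Figure D5:**
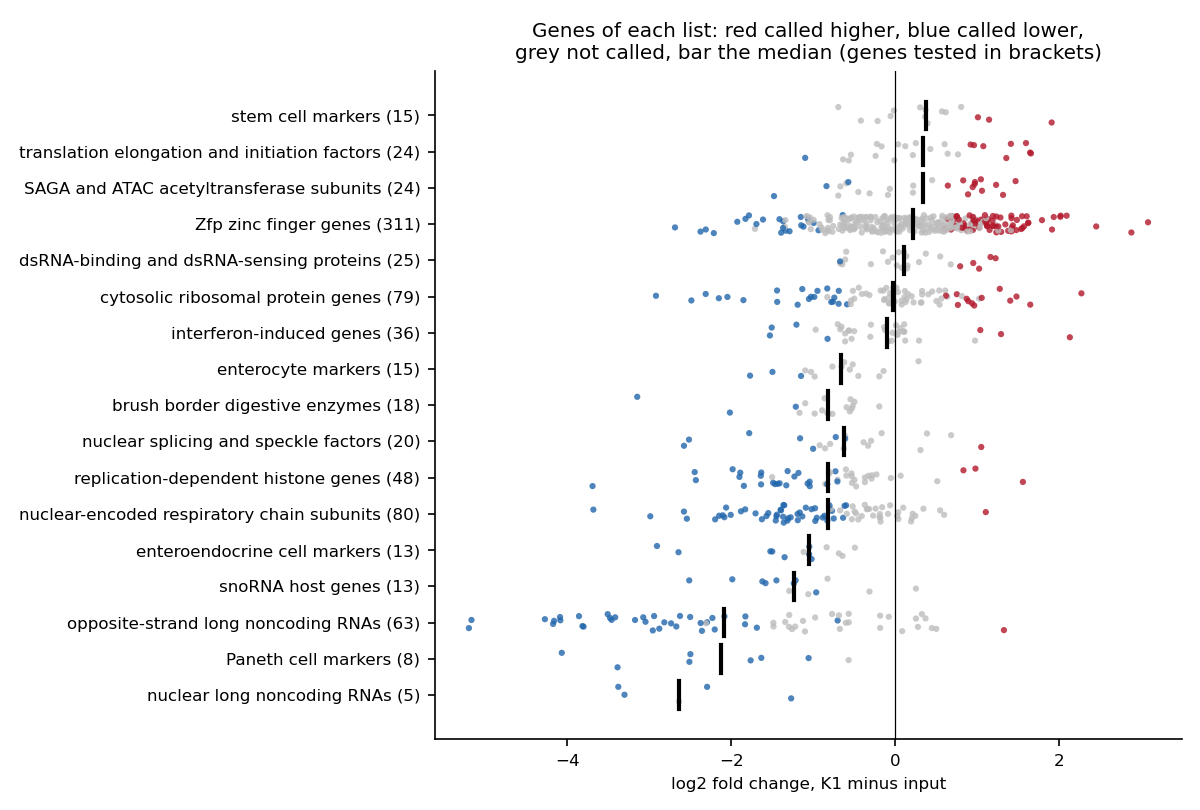
Log2 fold change of K1 against input (x axis) for every tested gene of 17 gene lists (rows, number tested in brackets); red was called higher, blue lower, grey neither, and the black bar is the list's median. Medians run from 0.37 for stem cell markers to -2.64 for nuclear long noncoding RNAs.

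Genes of the translation and energy machinery divided by transcript. Of 24 translation factors, 8 rose and 1 fell, beside 19.7% higher and 20.1% lower among all genes. Eef2, which moves the ribosome along its message, had 19167 and 24544 counts in input and 77591 and 82516 in K1 (1.65 ± 0.35, adjusted p = 0.00433), a call lost without the first or the second control input (adjusted p = 0.0812 and 0.0551). Eef1g rose by 1.66, with 72.0% of its transcript shared with near-identical copies. Of 79 cytosolic ribosomal protein genes, 13 rose and 21 fell, beside the same shares of all genes, around a median of -0.02. Rpl5 rose from 1787 and 2086 counts to 11634 and 10458 (2.27 ± 0.27); its exons overlap Fam69a on the other strand over 953 bases and 96.4% of its sequence recurs in copies. Rps26 fell from 1805 and 2146 counts to 448 and 385 (-2.48 ± 0.25), Rps27l by 2.92 and Rps15a by 2.31.

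Nuclear-encoded respiratory chain subunits fell in 46 of 80 cases and rose in 1, Cox7a2l (1.11 ± 0.21). Cox7a2, a cytochrome oxidase subunit, went from 1480 and 1619 counts to 173 and 115, or 12.8-fold lower (-3.68 ± 0.22, adjusted p = 5.49e-05). Uqcrb of complex III fell by 2.99 and Ndufc1 of complex I by 2.58. The list's median was -0.81, and -0.27 with the GC and length offset; its median transcript measured 1087.5 bases.

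Replication-dependent histone genes, whose messages end in a stem-loop in place of a poly(A) tail, fell in 24 of 48 cases and rose in 3. Hist1h4c went from 1108 and 1311 counts to 287 and 243 (-2.43 ± 0.20) and Hist1h4a from 727 and 727 to 190 and 129 (-2.44 ± 0.25). The 3 that rose all encode linker histones: Hist1h1d by 1.56 (1508 and 1382 counts in input, 5865 and 4324 in K1), Hist1h1e by 0.98 and Hist1h1c by 0.84. These linker calls were lost without the second control input (adjusted p = 0.0579, 0.140 and 0.172), and those of Hist1h1e and Hist1h1c also without the first control input (adjusted p = 0.0556 and 0.0926), the first control K1 library (adjusted p = 0.0557 and 0.0824) or the second (adjusted p = 0.0621 and 0.0773).

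The messages of proteins that bind, sense or process dsRNA showed no common shift. Of 25 tested, 5 rose and 1 fell, close to or below the share of all genes (19.7% and 20.1%), around a median of 0.11 that turned to -0.01 with DESeq2 size factors. Dicer1, which cuts miRNA precursors, went from 948 and 1016 counts to 2967 and 2481 (1.23 ± 0.21), Drosha, which releases those precursors in the nucleus, from 732 and 810 to 2012 and 1705 (1.03 ± 0.20), and Strbp from 697 and 763 to 2202 and 1688 (1.17 ± 0.19). Zfr was the one that fell, at -0.67 ± 0.19 (adjusted p = 0.0198), a call lost when any 1 of the 4 control libraries was left out (adjusted p from 0.0659 to 0.192).

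Of 36 interferon-induced genes, 3 rose and 4 fell, below the shares of all genes (19.7% and 20.1%), with a median of -0.10. Dtx3l, a ubiquitin ligase gene that overlaps Parp9 over 458 bases, had 1869 and 1457 counts in input and 11552 and 6178 in K1 (2.13 ± 0.46, adjusted p = 0.00482), and Irf7, a transcription factor of the interferon response, rose by 1.29 ± 0.27. Without the second control input neither passed (adjusted p = 0.0539 and 0.100); Irf7 also failed without the first control K1 library (adjusted p = 0.0520).

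The acetyltransferase genes deleted in the other genotype were both enriched in these control pulldowns. Kat2a had 222 and 228 counts in input and 617 and 498 in K1 (1.06 ± 0.24, adjusted p = 0.00577), a call lost without the second control input (adjusted p = 0.0706). Kat2b had 359 and 343 counts in input and 1178 and 908 in K1 (1.32 ± 0.19, adjusted p = 0.000796). Of 24 subunits of the SAGA and ATAC complexes in which both enzymes act, 11 rose and 3 fell around a median of 0.34. Among all genes 19.7% rose and 20.1% fell. Atxn7l3, of the deubiquitinase module, rose by 1.47 ± 0.23. Zinc finger genes of the Zfp series, many of them repressors of transposons, rose in 77 and fell in 22 of 311 cases, beside those shares of all genes. Their median was 0.22 and became -0.01 without TMM scaling. Endoplasmic reticulum chaperone and translocon genes rose in no case and fell in 3 of 20, beside 20.1% lower among all genes. Their median was 0.08, and 11 of the 20 values were positive. Those that fell included Sec61g (-2.16 ± 0.27) and Ssr4 (-1.70 ± 0.18).

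The K1 and J2 antibodies were compared directly in control epithelium. By edgeR's test on the J2 and K1 libraries of both genotypes, none of 14285 genes (0%) differed, with 1807 at an unadjusted p under 0.05. The spread of the DKO libraries entered that test, and with control libraries only 5147 of 13617 genes differed. The count was 0 by limma voom and 316 by DESeq2. With each animal as block, 3959 (27.7%) differed, 2192 of them higher in K1 (15.3%) and 1767 lower (12.4%). With the block, 5.22% and 4.88% of genes were at least 2-fold higher or lower. Rpa1 had 4242 and 3774 counts in J2 beside 3771 and 2824 in K1, and Deptor 8831 and 8010 beside 8051 and 6092; neither differed with the block (adjusted p = 0.144 and 0.157). Hopx had 244 and 222 counts in J2 beside 1505 and 965 in K1, a log2 difference of 2.20 (adjusted p = 0.000639 with the block). Kcnq1ot1 was lower in K1 than in J2, with 852 and 607 counts in J2 and a difference of -1.57 (adjusted p = 0.0012 with the block), and so was Xist (1378 and 980 in J2; -1.50, adjusted p = 0.00131 with the block).

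The enrichment in DKO differed from that in control for 870 of 15908 genes (5.47%), 218 of them higher in DKO (1.37%) and 652 lower (4.10%), and for 1912 with each animal as block. The count was 0 without either DKO input library or without the first control K1 library, 40 and 36 without the first and second control input, 307 without the second control K1 library, and 3550 and 2255 without the first and second DKO K1 library. Between genotypes, fewer cells of a type and less RNA per cell cannot be told apart in bulk libraries. Rpa1 did not differ by this test (-0.08, adjusted p = 0.913), and mt-Rnr2 did (5.21, adjusted p = 0.00659).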

How the data were processed

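The authors deposited 1 table of raw read counts per gene for each library, counted without regard to strand per the labels. The submitters' processing notes name STAR 2.7.10b, SAMtools 1.17, UMI-tools 1.1.4, HTSeq 2.0.2, DESeq2 1.40.1, edgeR 3.42.2 and deepTools 3.5.2 with mm10 (GRCm38.p4); their roles are not given. Counts over 48526 gene rows were tested in edgeR 4.0.16 (R 4.3.3) with TMM scaling, filterByExpr at a minimum count of 10, and the quasi-likelihood test with Benjamini-Hochberg adjustment. The fit held the 8 input and K1 libraries of both genotypes. DKO libraries entered the filter, the TMM scaling and the estimate of spread (4 residual degrees of freedom), and not the contrast itself. With control libraries only, 8780 of 14841 genes were called. CPM are counts divided by the TMM-scaled library size, times 1e6. Library sizes leave out the rows that name no gene. The fit was tested on simulated data with known changes.

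Animal numbers in the labels pair input with K1: deviations from group means correlated at 0.31 in control and 0.22 in DKO. The 2 samples of a group are separate animals. Rows matched GENCODE M21 for 48058 of 48526 genes, which gave gene types, positions, lengths (longest transcript), UTRs and overlaps. Self-complementary stretches came from blastn 2.17.0+ of the longest transcript against its own reverse complement, at 75% identity or more. Genes named were the 15 largest rises and falls among called genes with a mean of at least 50 counts, a common symbol and no overlap of libraries; up to 3 members each way per list; the 10 highest in K1; Kat2a and Kat2b; and the 5 leading rises with a stretch of at least 100 bases or with an opposite-strand overlap of at least 200. Lgr5, mt-Co1 and mt-Nd1 were added after their values were seen. The members and lists were chosen with earlier results of these data known. Alternatives tried were other scalings, filters, tools, blocks, an offset for GC content and length, thinning, and leaving out libraries.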

Additional observations from a re-analysis of the deposited data

Results flagged for a closer look

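Groups held 2 libraries, too few to test a sample for standing apart. Of 83 genes examined here, 25 differed between genotypes in K1 enrichment by the interaction test of edgeR (adjusted p under 0.05). Of these, 14 were less enriched in DKO and 11 more. Most of the 83 were named for their change in control, a value that this test also uses. Genes picked as large rises lean by that choice to less enrichment in DKO, and large falls to more. The 25 of 83 therefore cannot be set against the share of all genes. Over all 15908 genes tested, 870 differed (5.47%), 4.10% less and 1.37% more enriched in DKO, and none did when either DKO input library or the first control K1 library was left out. Values are DKO minus control on the log2 scale.

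The genes less enriched in DKO were Zbtb39 (-2.29), Mad2l1 (-2.28), Strbp (-2.22), Xpnpep3 (-2.16), Tmem170b (-1.89), Rpl5 (-1.89), Hopx (-1.86), Cdk6 (-1.78), Zfp652 (-1.77), Dclk1 (-1.72), Bri3bp (-1.65), Deptor (-1.62), Drosha (-1.58) and Dicer1 (-1.19), with adjusted p from 0.00785 for Strbp to 0.0495 for Bri3bp and Dicer1.

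The mitochondrial genes more enriched in DKO were mt-Rnr1 (5.38), mt-Rnr2 (5.21), mt-Atp8 (4.71), mt-Nd6 (4.43), mt-Nd5 (4.31), mt-Nd1 (3.69) and mt-Nd4l (2.89), with adjusted p from 0.00281 for mt-Atp8 to 0.0198 for mt-Nd1. Beside them stood Gm25939 (4.24), Pla2g2a (3.51), Malat1 (2.66) and Lgr5 (2.20), with adjusted p from 0.0263 for Pla2g2a to 0.0451 for Lgr5. The mitochondrial share of counts was 13.7% ± 7.0 (SD, n = 2) in DKO K1 libraries against 1.47% ± 0.10 (SD, n = 2) in control K1 libraries, and the DKO K1 libraries held 5559033 and 2220291 counts; the part of depth in these differences was not tested.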

How the results depend on the processing

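Alternatives kept 59 of 83 genes examined here on their side of the threshold under each of 23 settings; with each animal as block, the pairing given by the labels, no call among them was lost and that of mt-Nd1 was gained. The count of 6324 moved to 3797 with a mean of at least 50 counts, to 10349 with the replicate block in control libraries only, and ranged from 3100 to 8941 with 1 library left out; the replicate block over 8 libraries gave 7288. The DKO minus control count of 870 moved to 523 with DESeq2 size factors, 1309 without TMM, 1763 without a filter, 462 with a mean of at least 50 counts, 59 in all 12 libraries, 1912 with the replicate block, 333 with the GC and length offset, 1656 without the second DKO animal, and 0 to 3550 with 1 library left out. The K1 against J2 count of 0 moved to 316 with DESeq2, 5147 in control libraries only, 3959 with the replicate block and 8422 with both.

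Signs turned as follows. With the GC and length offset, medians were 0.33 for mitochondrial messages (0.33 with block), -0.0094 for stem cell markers (-0.011 with block), 0.042 for mitochondrial ribosomal proteins (0.034 with block), 0.23 for protein-coding genes of 40% GC or less (0.23 with block) and 0.40 for mt-Atp8 (0.38 with block). mt-Nd1, called neither in the main fit nor with the offset, turned to 0.33 with it. The dsRNA-binding list was at -0.011 with DESeq2 size factors, -0.12 without TMM, -0.13 with a mean of at least 50 counts and -0.011 with DESeq2. Protein-coding genes were at -0.0034, -0.11 and -0.0033 with DESeq2 size factors, without TMM and with DESeq2, and Zfp genes at -0.0053 without TMM. Structured RNAs were at -0.40 with a mean of at least 50 counts, -0.23 in control libraries, -0.24 with the block there, -0.18 after thinning, -0.16 without the second DKO animal, and from -0.70 to 0.53 with 1 library left out. Causes were not tested beyond what each setting changes. With 2 animals per group, precision is set by the spread within groups, DKO included, and genes at few counts in K1 have imprecise folds. Fits with 1 library left out had 3 residual degrees of freedom in place of 4, so a lost call need not mean a changed fold.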
